A study of Mus musculus with 9 samples.

Results

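The SOCS family genes *Socs1* to *Socs6* and *Cish* and the PIM kinase genes *Pim1*, *Pim2* and *Pim3* were examined as a readout of cytokine signaling in 3 mouse myeloid cell lines. The 10 genes were taken by symbol from a table of 54347 genes, and all 10 passed the filter on low counts that left 13082 genes for testing. Hox-WT and Hox-URE are hematopoietic progenitor lines, obtained from lineage-negative c-Kit+ bone marrow cells that carry a Hoxb8 fusion protein switched on by estradiol. Hox-WT is wild-type (WT). Hox-URE has the genotype UREd/d, a deletion of the upstream regulatory element (URE) that drives *Spi1*, which encodes the transcription factor PU.1. URE-AML, named B22 in the labels, is an AML blast-like UREd/d line grown out of leukemic blasts of a mouse with the deletion by repeated culture with IL-3. Every line was kept in IMDM with fetal calf serum, estradiol and 10 ng/ml of the cytokines IL-3, IL-6 and SCF, so no library was free of cytokine. Poly-A RNA was sequenced from 3 libraries per line. Each genotype and stage is 1 line, so each difference below is a difference between lines. The labels do not say that libraries came from separate cultures, and p-values then measure the spread between libraries, which may be technical.

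Cytokine receptors of the IL-3 and IL-6 type signal through Janus kinases (JAKs), which phosphorylate STAT transcription factors. STATs enter the nucleus and bind sites of the form TTCNNNGAA. Among the genes they induce are *Cish*, *Socs1*, *Socs2* and *Socs3*, whose proteins dampen the same receptors, so that their transcripts are widely read as a trace of recent STAT activity. SOCS1 and SOCS3 inhibit JAKs directly, whereas CIS, the product of *Cish*, and SOCS2 bind phosphorylated receptors. SOCS4, SOCS5 and SOCS6 are better known from receptor tyrosine kinases such as the EGF receptor and KIT. PIM kinases are serine/threonine kinases that lack a regulatory domain, so their activity follows their amount, and *Pim1* in particular is induced by STAT5 downstream of IL-3.

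The STAT site is shown for the genes in which it was found, as the sequence that STAT factors are known to bind. RefSeq promoter windows on GRCm38.p6, from 250 bases before the annotated start to 50 after it, were held for 7 of the 10 genes (8 windows, as *Pim1* has a pair). *Socs2*, *Socs5* and *Socs6* had none. TTCNNNGAA, whose complement has the same form, was found in 2 of the 8 windows, against 8.29% of all 32817 promoter windows. The *Cish* stretch spans chr9:107296654-107296683 on the plus strand and lies in the first exon of the longest-reaching *Cish* transcript of GENCODE M21. The *Socs3* stretch spans chr11:117969471-117969570 on the minus strand, from base -204 to base -105 of the RefSeq start, within an intron of another *Socs3* transcript. The 100 bases before *Socs1*, at chr16:10785537-10785636 on the minus strand, are given for comparison. Capitals mark TTCNNNGAA, and each sequence reads 5′ to 3′ on the strand of its gene.
Cish: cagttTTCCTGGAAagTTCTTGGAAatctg
Socs3: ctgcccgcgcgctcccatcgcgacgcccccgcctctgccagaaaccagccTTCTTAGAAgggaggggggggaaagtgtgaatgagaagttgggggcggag
Socs1: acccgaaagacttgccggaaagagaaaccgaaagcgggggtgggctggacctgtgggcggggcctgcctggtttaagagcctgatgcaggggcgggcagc

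*Cish* held a tandem pair of such sites, starting at bases 1 and 12 of its window's transcription start. *Socs3* held 1, starting at base -154. The windows of *Socs1*, *Socs4*, *Pim1*, *Pim2* and *Pim3* held no run of these letters. GAGGAAG on either strand, a core sequence bound by PU.1, was found once each in the windows of *Pim2* (base -187) and *Pim3* (base -167), that is in 2 of 8, against 13.6% of all windows. A match describes the letters of the window and does not show that a factor binds there.

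Total counts per library were 20331064 to 28588718. Levels are given in CPM, that is counts relative to library size after TMM scaling, and the floor of 3 counts per library stood at 0.104 to 0.153 CPM, which covers counting error only. *Spi1* had 110, 101 and 96.6 CPM in Hox-WT libraries 1 to 3, 1, 1 and 0 counts in Hox-URE, and 2.5, 5.52 and 6.35 CPM in URE-AML. *Hoxb8* had 61.6 to 69.7 CPM in Hox-WT, 127 to 141 CPM in Hox-URE and 0 counts in every URE-AML library. Libraries 2 and 3 of Hox-URE were closer to each other (chi-square over all genes, divided by its degrees of freedom, of 26.8) than to library 1 (67.6 and 99.8). All 7 calls among the SOCS and PIM genes for Hox-URE against Hox-WT, and all 5 for URE-AML against Hox-URE, were also made without Hox-URE library 1.

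*Cish*, *Socs1* and *Socs3* rose in both Hox-URE and URE-AML, by 5.69 to 14.6-fold over Hox-WT, and *Socs2* rose in Hox-URE, where it also exceeded URE-AML. *Socs5* fell in both lines. The PIM genes differed from Hox-WT by at most 2.14-fold, and their calls differed between *Pim1*, *Pim2* and *Pim3*. A gene was called where edgeR gave an adjusted p under 0.05 together with a change of over 1.5-fold, and calls are counted against the share of all tested genes called in the same direction.

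Against Hox-WT, 6 of the 10 genes rose and 1 fell in Hox-URE, beside 21.3% and 15.9% of all tested genes. In URE-AML, 5 rose and 2 fell, beside 23.0% and 20.2%. Between the lines with the deletion, 2 were higher and 3 lower in URE-AML relative to Hox-URE, beside 20.3% and 22.4%. The median log2 fold change (log2FC) of the 10 genes was 0.94, 0.64 and 0.09 in these 3 comparisons, and that of all tested genes was 0 in each. The libraries of the lines did not overlap for 9, 10 and 5 of the 10 genes, beside 60.3%, 67.6% and 62.8% of all tested genes. Non-overlap was thus common in the whole transcriptome. The comparisons share libraries, as Hox-WT enters both of the first and each UREd/d line enters 2, so their values are given side by side and not as separate evidence.

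**Figure D1:**
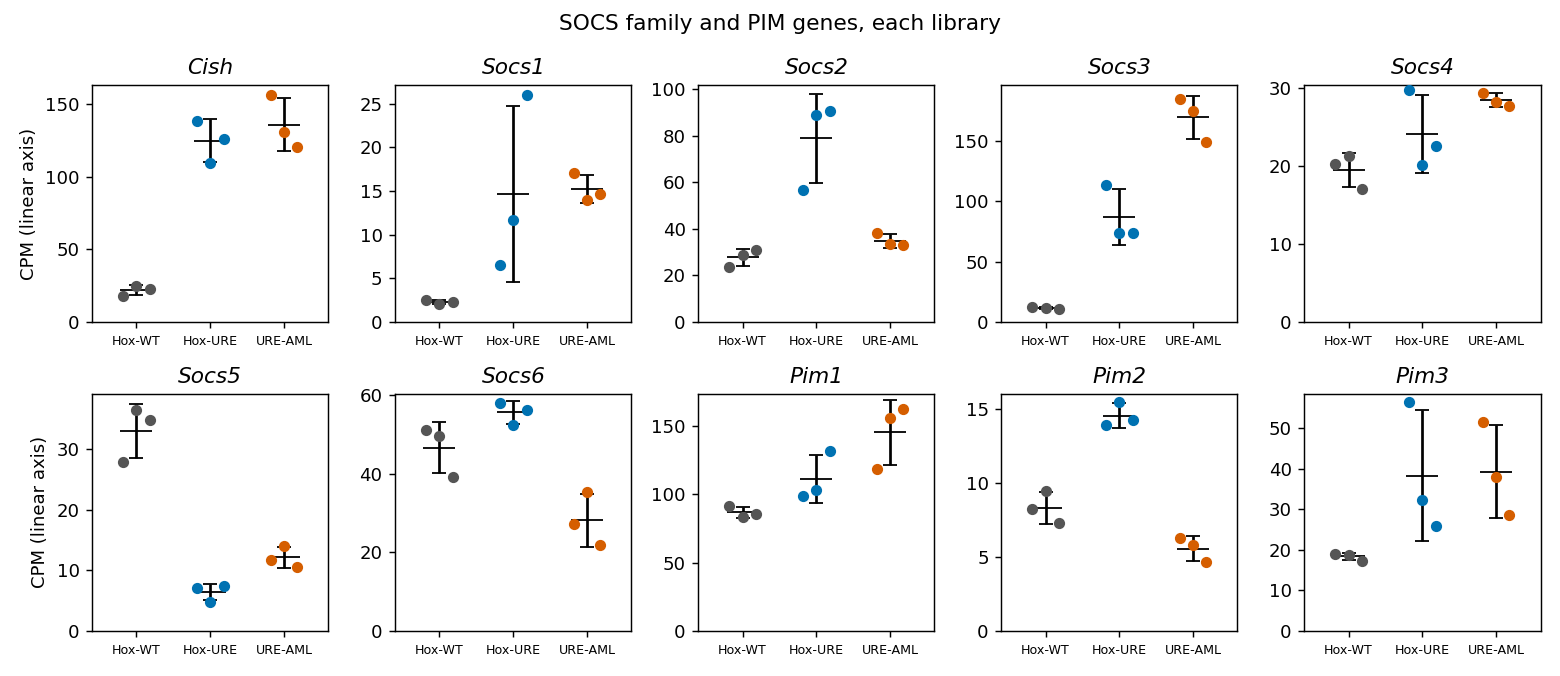
Level of each SOCS and PIM gene in every library, in CPM on linear axes that start at 0. Points are libraries 1 to 3 of each line from left to right, and bars are the mean ± SD of 3 libraries. *Cish* and *Socs3* stand far above Hox-WT in every library of both UREd/d lines, *Socs2* only in Hox-URE, and *Socs5* below Hox-WT in both.

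*Cish* (ENSMUSG00000032578, chromosome 9, 107296026 to 107302784 of GRCm38, plus strand) encodes CIS, which competes with STAT5 for docking sites on the receptor. It had 18.1, 25.0 and 22.7 CPM in Hox-WT libraries 1 to 3, 139, 109.6 and 126 CPM in Hox-URE, and 156, 131 and 120.4 CPM in URE-AML. Every UREd/d library lay above every Hox-WT library, and the UREd/d lines overlapped. Against Hox-WT, log2FC was 2.51 ± 0.15 (SE, edgeR adjusted p = 6.56e-07) for Hox-URE and 2.63 ± 0.15 (adjusted p = 2.51e-07) for URE-AML, a rise of 5.69-fold and 6.19-fold. Between the UREd/d lines it was 0.12 ± 0.14 (adjusted p = 0.489). Its coding strand lies opposite to 2 annotated genes, *Gm17041* and *Gm17040*. The kit kept strand, but whether the counting used it was not stated, so reads of these genes may not be fully separated.

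*Socs3* (ENSMUSG00000053113, chromosome 11, 117966079 to 117970047, minus strand) encodes the inhibitor of receptors that use gp130 and of the G-CSF receptor. It showed the largest change among the 10 genes. Hox-WT libraries had 12.2, 11.5 and 11.1 CPM, Hox-URE libraries 114, 73.5 and 73.7 CPM, and URE-AML libraries 184, 174 and 149 CPM. No line overlapped another, with Hox-WT lowest and URE-AML highest. The rise from Hox-WT was 7.50-fold in Hox-URE (log2FC 2.91 ± 0.18, SE, edgeR adjusted p = 7.25e-07) and 14.6-fold in URE-AML (3.87 ± 0.19, adjusted p = 5.92e-08). URE-AML was 1.95-fold above Hox-URE (0.96 ± 0.16, adjusted p = 0.000606).

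*Socs1* (ENSMUSG00000038037, chromosome 16, 10782240 to 10785536, minus strand), the inhibitor of JAKs best known from interferon signaling, was the least abundant of the 10 in Hox-WT. There it had 2.47, 2.11 and 2.32 CPM, from 59 to 67 counts per library. Hox-URE had 6.48, 11.7 and 26.0 CPM, a coefficient of variation of 68.7%, and URE-AML had 17.1, 14.0 and 14.6 CPM. All 6 UREd/d libraries lay above Hox-WT, and the spread within Hox-URE covered all of URE-AML. The log2FC over Hox-WT came to 2.66 ± 0.43 (SE, edgeR adjusted p = 0.000512) for Hox-URE and 2.73 ± 0.43 (adjusted p = 0.000335) in URE-AML. Without Hox-URE library 3, the value for Hox-URE was 1.97 (adjusted p = 0.000183). URE-AML against Hox-URE was 0.06 ± 0.39 (adjusted p = 0.907), and without Hox-URE library 3 it was called higher, at 0.75 (adjusted p = 0.0256), so that comparison depended on this library.

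*Socs2* (ENSMUSG00000020027, chromosome 10, 95385362 to 95417180, minus strand), a STAT5-induced gene whose product restrains growth hormone signaling, separated the UREd/d lines. Hox-WT had 23.8, 28.8 and 30.8 CPM, Hox-URE 56.6, 89.0 and 90.7 CPM, and URE-AML 38.3, 33.5 and 32.9 CPM. Hox-URE lay above both other lines in all libraries. URE-AML lay just above Hox-WT without overlap. *Socs2* rose 2.83-fold in Hox-URE (log2FC 1.5 ± 0.18, SE, edgeR adjusted p = 7.68e-05). The value for URE-AML against Hox-WT was 0.33 ± 0.18 (adjusted p = 0.143), and URE-AML was lower than Hox-URE by a log2FC of -1.17 ± 0.18 (adjusted p = 0.000293).

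Of the remaining SOCS genes, *Socs5* (ENSMUSG00000037104, chromosome 17, 87107679 to 87137839, plus strand), whose product has been linked to the EGF and IL-4 receptors, went the other way. Hox-WT had 27.8, 36.4 and 34.7 CPM, Hox-URE 7.03, 4.81 and 7.36 CPM, and URE-AML 11.8, 14.0 and 10.6 CPM. The 3 lines did not overlap, with Hox-URE lowest. *Socs5* fell 5.16-fold in Hox-URE (log2FC -2.37 ± 0.19, SE, edgeR adjusted p = 4.66e-06) and 2.72-fold in URE-AML (-1.44 ± 0.18, adjusted p = 7.34e-05). It was higher in URE-AML relative to Hox-URE (0.92 ± 0.19, adjusted p = 0.00184).

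*Socs6* (ENSMUSG00000056153, chromosome 18), whose product binds KIT, was lowest in URE-AML. It had 51.2, 49.6 and 39.2 CPM in Hox-WT, 58.2, 52.4 and 56.3 CPM in Hox-URE, and 27.2, 35.4 and 21.8 CPM in URE-AML. URE-AML lay below both Hox lines in all libraries. It was lower there than in Hox-WT by a log2FC of -0.73 ± 0.17 (SE, edgeR adjusted p = 0.00398) and than in Hox-URE by -0.98 ± 0.17 (adjusted p = 0.000651). The first of these calls was lost without URE-AML library 3 (-0.58, under the fold change threshold). Hox-URE against Hox-WT gave 0.25 ± 0.17 (adjusted p = 0.23). *Socs6* overlaps 2 annotated genes on its own strand and 1 on the other.

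*Socs4* (ENSMUSG00000048379, chromosome 14, 47276931 to 47296102, plus strand) was not called in any of the 3 comparisons. It had 20.2, 21.2 and 17.1 CPM in Hox-WT, 29.8, 20.1 and 22.6 CPM in Hox-URE, and 29.4, 28.3 and 27.7 CPM in URE-AML. Hox-URE overlapped both other lines. URE-AML lay above Hox-WT by a log2FC of 0.54 ± 0.15 (SE, edgeR adjusted p = 0.0102), a fold change of 1.46 that is just under the threshold.

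The PIM genes followed 3 patterns. *Pim1* (ENSMUSG00000024014, chromosome 17, 29490753 to 29496112, plus strand), the best known STAT5 target of the family, had 91.4, 83.8 and 85.5 CPM in Hox-WT, 99.1, 103 and 132 CPM in Hox-URE, and 119, 156 and 163 CPM in URE-AML. It rose 1.68-fold in URE-AML over Hox-WT (log2FC 0.75 ± 0.14, SE, edgeR adjusted p = 0.00111). Hox-URE lay between the other lines, overlapping URE-AML but not Hox-WT, and was not called against either (0.36 ± 0.14, adjusted p = 0.0538 against Hox-WT, and 0.39 ± 0.14, adjusted p = 0.0366, for URE-AML against Hox-URE). *Pim1* overlaps the antisense gene *Gm26885*.

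*Pim2* (ENSMUSG00000031155, chromosome X, 7878262 to 7883432, plus strand) encodes a kinase that sustains survival of hematopoietic cells under growth factor control. It had 8.21, 9.43 and 7.26 CPM in Hox-WT, 13.9, 15.5 and 14.3 CPM in Hox-URE, and 6.26, 5.80 and 4.64 CPM in URE-AML. The 3 lines did not overlap, with Hox-URE highest and URE-AML lowest. *Pim2* rose 1.75-fold in Hox-URE (log2FC 0.81 ± 0.16, SE, edgeR adjusted p = 0.00171) and stood 2.61-fold lower in URE-AML compared with Hox-URE (-1.39 ± 0.16, adjusted p = 4.78e-05). URE-AML against Hox-WT was -0.58 ± 0.16 (adjusted p = 0.0116), with a fold change of 1.49 that missed the threshold and passed it, as a fall, in 7 of the 9 fits that left out a library and with upper-quartile scaling (-0.61).

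*Pim3* (ENSMUSG00000035828, chromosome 15, 88862186 to 88865726, plus strand), the third kinase of the family, had 19.1, 18.8 and 17.3 CPM in Hox-WT, 56.6, 32.4 and 26.0 CPM in Hox-URE, and 51.5, 38.0 and 28.6 CPM in URE-AML. All UREd/d libraries lay above Hox-WT, and their spread was wide within each line. The log2FC over Hox-WT came to 1.06 ± 0.28 (SE, edgeR adjusted p = 0.00961) for Hox-URE and 1.10 ± 0.28 (adjusted p = 0.00717) in URE-AML, and 0.04 ± 0.28 (adjusted p = 0.928) between these lines. Without Hox-URE library 1, the value for Hox-URE was 0.66 (adjusted p = 0.0235). The 511 tested genes of chromosome 15 had a median log2FC of 0.33 from Hox-WT to Hox-URE, 0.00 from Hox-WT to URE-AML and -0.39 from Hox-URE to URE-AML. The part of this shift in the *Pim3* value was not tested. For the X chromosome of *Pim2* the medians were 0.08, 0.00 and -0.03.

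**Figure D2:**
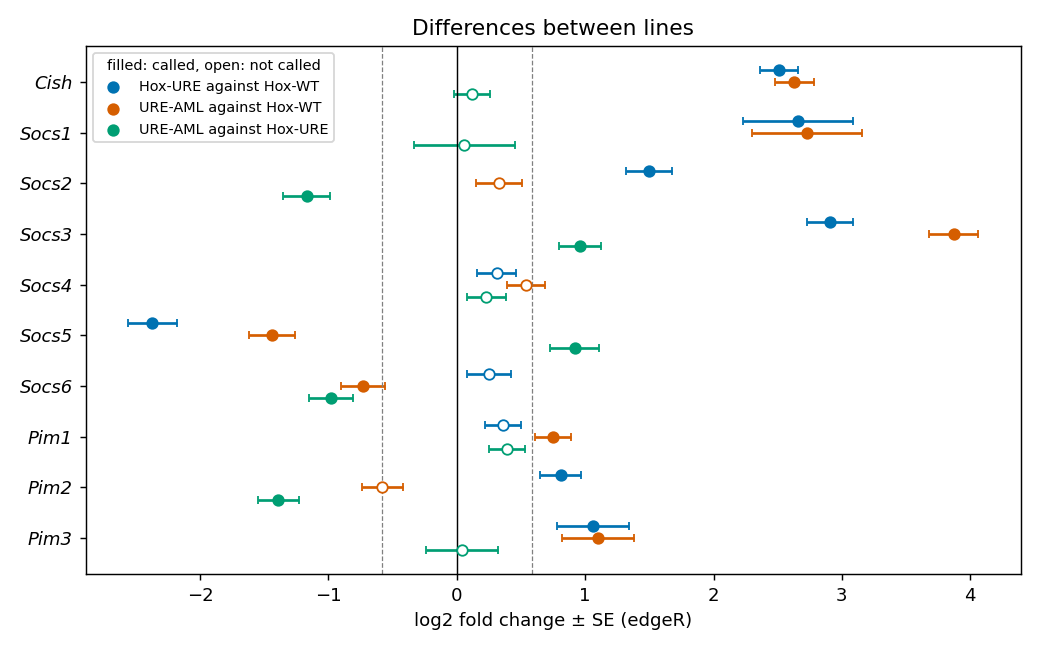
Log2 fold change ± SE (edgeR) of each gene in the 3 comparisons of lines, from 3 libraries a line. Filled points were called, open points were not, and dashed lines mark a 1.5-fold change. *Cish*, *Socs1* and *Socs3* lie between 2.51 and 3.87 in both comparisons with Hox-WT, and *Socs5* at -2.37 and -1.44.

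Levels of different genes were compared as CPM per kilobase of the gene's exons. In Hox-WT, *Pim1* led with 25.8 ± 1.19 CPM per kilobase (SD, n = 3), above *Pim3* at 7.57 ± 0.40 and *Socs5* at 5.14 ± 0.71. The neighbours from *Socs5* through *Socs6*, *Socs3*, *Cish*, *Pim2* and *Socs2* to *Socs4* overlapped each other in this order, between 5.14 and 2.84 CPM per kilobase, and *Socs1* stood alone at the bottom with 0.791 ± 0.0633. Per kilobase of the longest transcript instead, *Pim1* and *Socs1* kept these places, while *Socs6* (7.73), *Pim3* (7.57), *Socs5* (7.09) and *Socs2* (6.55) overlapped in sequence below *Pim1*.

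In Hox-URE the order changed. *Pim1* (33.2 ± 5.30 CPM per kilobase) and *Socs3* (30.1 ± 8.03) overlapped at the top, followed by *Cish* (19.4 ± 2.27) and *Pim3* (15.8 ± 6.66), which also overlapped, then *Socs2* (8.27 ± 2.02). With the longest transcript *Socs2* moved above *Pim3*, at 18.6 and 15.8 CPM per kilobase, and these overlapped. *Socs5* went to the bottom, at 0.997 ± 0.216. In URE-AML *Socs3* led with 58.6 ± 6.26 CPM per kilobase, ahead of *Pim1* at 43.4 ± 7.08 and *Cish* at 21.2 ± 2.87, without overlap. With the longest transcript *Socs3* still led, but its lowest library (58.5 CPM per kilobase) fell below the highest of *Pim1* (60.2). *Socs6*, *Pim2* and *Socs5* overlapped in sequence at the bottom, between 2.48 and 1.89.

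The summed level of *Cish* and *Socs1* to *Socs6*, without *Socs7*, which is not one of the 10 genes, was 22.2 to 24.8 CPM per kilobase in Hox-WT, a range of 64.1 to 79.7 for Hox-URE, and 86.5 to 107 for URE-AML. The sums of the lines did not overlap. *Socs3* alone made up 17.3 ± 1.5% (SD, n = 3) of the sum in Hox-WT, as against 41.3 ± 7.39% in Hox-URE and 60.3 ± 0.852% in URE-AML. The share of *Cish* was 14.7 ± 1.69%, 26.9 ± 0.246% and 21.7 ± 1.08%, and that of *Socs5* was 22.1 ± 2.22%, 1.37 ± 0.202% and 1.95 ± 0.253%. With the longest transcript the mean shares of *Socs3* were lower, at 13.3%, 34.4% and 55.2%, in the same order of lines.

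The summed PIM level was 35.1 to 38.0 CPM per kilobase in Hox-WT, 49.6 to 57.8 for Hox-URE, and 58.7 to 64.2 for URE-AML. *Pim1* held the largest share in all 3 lines, with 71.0 ± 1.66%, 61.4 ± 10.2% and 70.2 ± 9.29% (SD, n = 3). *Pim3* held 20.8 ± 0.612%, 28.9 ± 10.6% and 26.5 ± 8.73%. *Pim2* was the smallest, with 8.17 ± 1.05%, 9.68 ± 1.33% and 3.25 ± 0.566%, and in URE-AML its highest library (3.82%) lay below the lowest of either Hox line (7.40%).

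**Figure D3:**
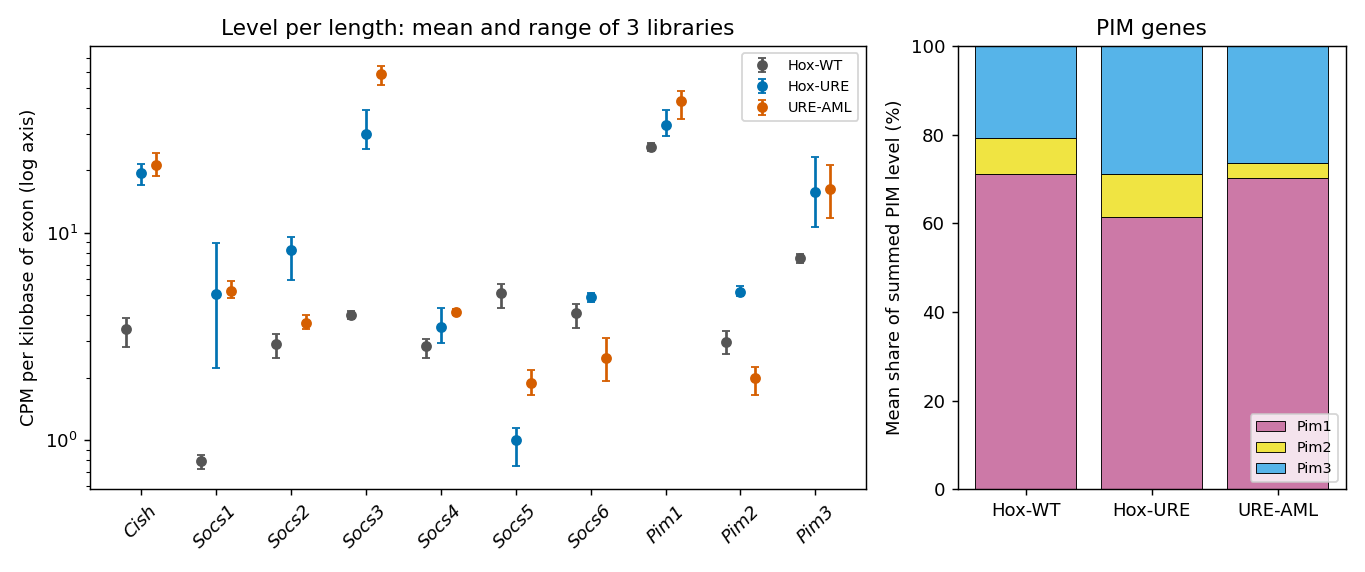
Left, level of each gene in CPM per kilobase of exon on a log axis, with points for the mean and bars for the range of 3 libraries of a line. Right, mean share of each PIM gene in the summed PIM level per kilobase (%). *Socs3* goes from 4.02 CPM per kilobase in Hox-WT to 58.6 in URE-AML, and *Pim1* holds 61.4% to 71.0% of the PIM sum.

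Likeness of profiles was measured as the root mean square difference (RMSD) of log2 CPM over the 9 libraries, each gene centered on its own mean, among 13081 other tested genes. Among the 10 genes, *Socs4* and *Pim1* (RMSD 0.27) and *Socs6* and *Pim2* (0.28) were closest. *Cish* stood 0.53 from *Socs1* and 0.55 from *Socs3*, whereas *Socs3* and *Socs5* were farthest apart (2.49). In the whole table the genes most like *Cish* were *Pdp1* (0.19), *Fgfbp3* (0.21) and *1600014C10Rik* (0.23). *Pdp1*, which encodes a pyruvate dehydrogenase phosphatase, had mean levels of 6.28 CPM in Hox-WT, 32.1 CPM in Hox-URE and 30.8 CPM in URE-AML, and *Fgfbp3* was near the floor in Hox-WT (0.168 CPM). Closest to *Socs2* were *Snap47* (0.16), the autophagy protease gene *Atg4a* (0.16) and *H2-T22* (0.17), and closest to *Pim1* were *Ogfod2* (0.09), *Ccpg1os* (0.10) and *Synrg* (0.10). The 9 libraries form 3 lines, so these values mostly describe the ratios between 3 line means.

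Upstream of the SOCS genes, the receptors of the supplied cytokines differed widely between the lines. *Il3ra*, the IL-3 binding subunit, had 8.44, 11.2 and 14.3 CPM in Hox-WT, 87.5, 107 and 133 CPM in Hox-URE, and 38.1, 38.0 and 37.3 CPM in URE-AML. Its log2FC over Hox-WT came to 3.27 ± 0.20 (SE, edgeR adjusted p = 8.09e-07) for Hox-URE and 1.74 ± 0.20 (adjusted p = 3.3e-05) in URE-AML. *Csf2rb*, the shared beta subunit through which IL-3 signals, rose by 3.57 ± 0.14 (adjusted p = 4.59e-08) and 1.61 ± 0.13 (adjusted p = 3.39e-06). Both subunits were lower in URE-AML relative to Hox-URE (-1.53 ± 0.19, adjusted p = 7.09e-05, and -1.97 ± 0.13, adjusted p = 9.4e-07), whereas *Cish* overlapped between these lines and *Socs3* was higher in URE-AML.

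*Csf2rb2*, the second, IL-3-restricted beta subunit of the mouse, rose in Hox-URE (4.37 ± 0.67, SE, edgeR adjusted p = 0.000368) with a wide spread of 64.8, 372 and 676 CPM over libraries 1 to 3. Library 1 was the lowest and library 3 the highest there, as for *Socs1* in the same libraries (6.48, 11.7 and 26.0 CPM). Hox-URE library 1 was also the lowest in *Cpa3*, a mast cell and basophil protease gene (768, 2789 and 4437 CPM), and the highest in *Socs3* and *Pim3*. The parts of these differences between libraries in the *Socs1*, *Socs3* and *Pim3* values were not tested. In URE-AML, *Csf2rb2* had 19.6, 25.2 and 18.2 CPM, beside 15.9, 20.4 and 17.3 CPM in Hox-WT.

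All 5 other receptors were called lower in Hox-URE, and 4 of them in URE-AML. *Il6st* overlapped Hox-WT in URE-AML, with 8.44, 4.14 and 5.02 CPM, and was not called there (log2FC -0.84 ± 0.79, SE, edgeR adjusted p = 0.39). It was called only in a fit of the 6 libraries compared (-0.84, edgeR adjusted p = 0.0361). *Il6ra*, the IL-6 binding chain, had 3.79, 4.36 and 3.67 CPM in Hox-WT, 1, 0 and 1 counts in Hox-URE, and 2.75, 2.05 and 1.97 CPM in URE-AML, and was called lower in both lines (edgeR adjusted p = 1.77e-06 and 0.0367). The call in URE-AML was lost with no filter on low counts (adjusted p = 0.0673), without any 1 Hox-WT library (0.0698 to 0.119), and without URE-AML library 2 or 3 (0.112 and 0.11). *Il6st*, which encodes gp130, had 11.2, 7.32 and 13.0 CPM in Hox-WT and 0.0364, 3.73 and 0.306 CPM in Hox-URE, a log2FC of -2.94 ± 0.88 (adjusted p = 0.0173). Hox-URE library 2 stood above the others. Without it URE-AML was called higher than Hox-URE, at 5.22 (adjusted p = 0.000208), beside 2.10 (adjusted p = 0.0631) with it, and a call was also made with no filter on low counts (2.12) or library size alone (2.22). *Socs3*, a regulator of gp130 receptors, rose in Hox-URE while both chains of the IL-6 receptor were at their lowest there. *Kit*, the SCF receptor, fell in both lines, with a log2FC of -2.02 ± 0.13 (SE, edgeR adjusted p = 9.74e-07) for Hox-URE and -0.85 ± 0.13 (adjusted p = 0.000217) for URE-AML. So did *Csf3r*, the G-CSF receptor (-3.16 ± 0.29, adjusted p = 1.03e-05, and -1.20 ± 0.26, adjusted p = 0.0025), and *Csf2ra*, the GM-CSF binding subunit (-2.15 ± 0.26, adjusted p = 7.94e-05, and -1.19 ± 0.25, adjusted p = 0.00215).

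Among the kinases, *Jak2*, which serves the IL-3 receptor, rose in Hox-URE (0.94 ± 0.12, SE, edgeR adjusted p = 0.000128) and was not called in URE-AML (0.04 ± 0.12, adjusted p = 0.818). *Jak1* rose in Hox-URE (0.65 ± 0.10, adjusted p = 0.000488) and *Tyk2* in URE-AML (1.01 ± 0.10, adjusted p = 9.49e-06). *Jak1* went under the fold change threshold with library size alone (0.54), without Hox-WT library 1 (0.57) and without Hox-URE library 2 (0.58). *Jak3* was not called in any comparison. Of the 12 receptor and kinase genes, 5 rose and 5 fell in Hox-URE against Hox-WT, beside 21.3% and 15.9% of all tested genes. In URE-AML against Hox-WT 3 rose and 4 fell, beside 23.0% and 20.2%, and 4 were higher and 4 lower in URE-AML relative to Hox-URE, beside 20.3% and 22.4%. Their median log2FC was 0.37, 0.02 and 0.14, beside 0 for all tested genes, and was the same with *Il6ra* placed at the floor in Hox-URE.

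The STAT genes did not move together. *Stat5a* had 48.4, 45.5 and 46.7 CPM in Hox-WT, 23.7, 37.4 and 39.3 CPM in Hox-URE, and 11.7, 11.0 and 13.1 CPM in URE-AML, with no overlap between lines. It fell in URE-AML against Hox-WT (log2FC -1.97 ± 0.18, SE, edgeR adjusted p = 6.54e-06) and was lower there than in Hox-URE (-1.49 ± 0.18, adjusted p = 5.34e-05). *Stat5b* had 51.9 to 54.2 CPM in Hox-WT, 62.9 to 85.6 CPM in Hox-URE and 35.8 to 40.5 CPM in URE-AML, and was called only between the UREd/d lines (-0.92 ± 0.12, adjusted p = 9.44e-05). URE-AML had the least mRNA of both STAT5 genes, while its *Cish* libraries overlapped those of Hox-URE and its *Socs2* libraries lay below them. The amount of a STAT transcript does not measure its phosphorylation, which these data do not hold.

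*Stat3*, the factor downstream of gp130 and the G-CSF receptor, was not called. Its log2FC over Hox-WT of -0.45 ± 0.12 (SE, edgeR adjusted p = 0.00938) for Hox-URE and of -0.49 ± 0.12 (adjusted p = 0.00515) for URE-AML were both under 1.5-fold. *Stat2* rose in both UREd/d lines (0.96 ± 0.17, adjusted p = 0.000947, and 1.46 ± 0.17, adjusted p = 4.21e-05). *Stat6* rose in URE-AML (0.95 ± 0.08, adjusted p = 4.42e-06), and in Hox-URE it was called at the edge of the threshold, with a fold change of 1.52 (0.60 ± 0.08, adjusted p = 0.000162). That call was lost with upper-quartile scaling (0.58), with library size alone (0.50), without Hox-WT library 1 (0.54) and without Hox-URE library 1 (0.58). *Stat4* rose in Hox-URE (1.43 ± 0.22, adjusted p = 0.00034) and fell in URE-AML (-2.32 ± 0.24, adjusted p = 1.68e-05). Of the 6 STAT genes counted here, 3 rose and 0 fell in Hox-URE against Hox-WT, beside 21.3% and 15.9% of all tested genes, 2 rose and 2 fell in URE-AML against Hox-WT, beside 23.0% and 20.2%, and 0 were higher and 3 lower in URE-AML relative to Hox-URE, beside 20.3% and 22.4%. The medians were 0.52, -0.48 and -0.48. Behind each of the counts of 0 by edgeR stood 2 genes with an unadjusted p under 0.05 in that direction and a fold change under 1.5, and DESeq2 also called 0. With library size alone these counts became 2 and 1 in Hox-URE against Hox-WT, where *Stat5a* was called lower (-0.60), and 1 and 3 between the UREd/d lines, where *Stat2* was called higher (0.62). *Stat5a* was also called lower in Hox-URE without Hox-URE library 2 (-0.59) or 3 (-0.63), and *Stat2* higher between the UREd/d lines without Hox-URE library 3 (0.59).

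**Figure D4:**
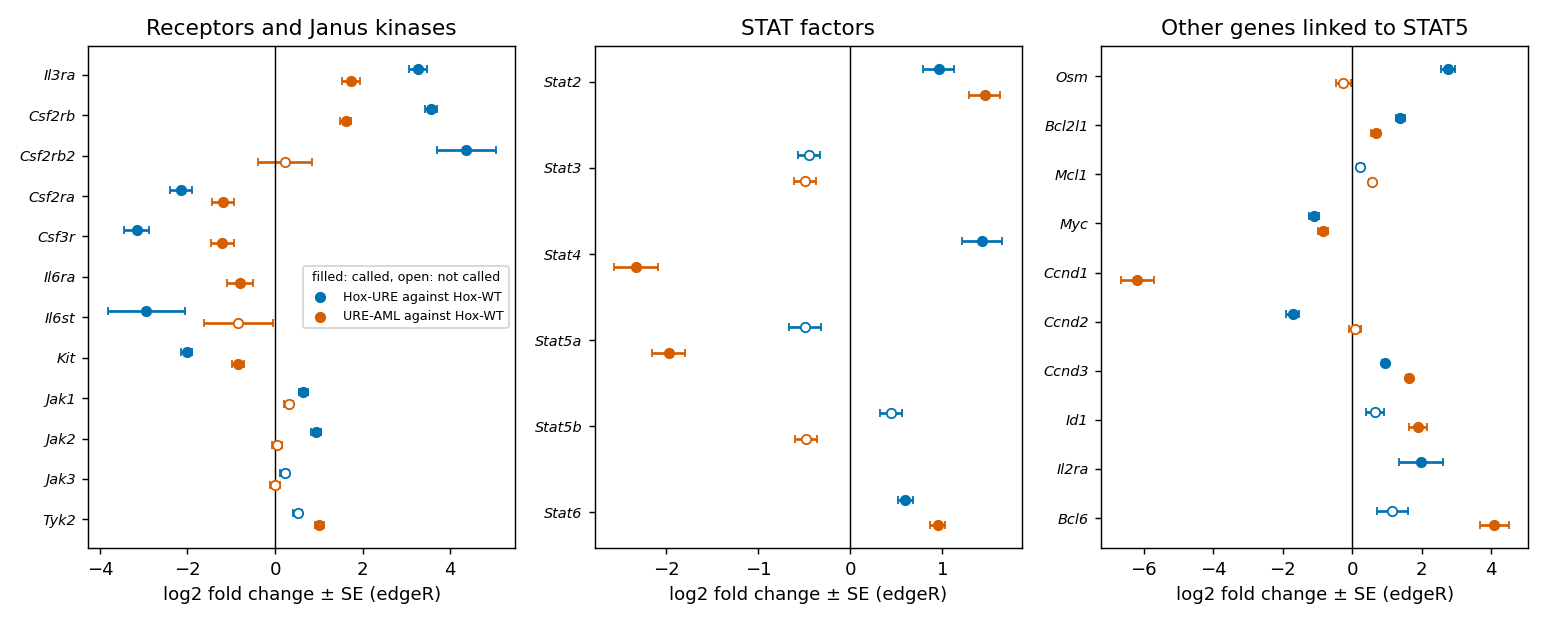
Log2 fold change ± SE (edgeR) against Hox-WT for the receptors and Janus kinases, the STAT factors and other genes linked to STAT5, from 3 libraries a line. Filled points were called and open points were not, and no point is drawn where a line held at most 3 counts in every library. *Il3ra* and *Csf2rb* lie above 1.5 in both lines, the other receptors except *Csf2rb2* below 0, and *Stat5a* at -0.49 and -1.97.

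Other genes tied to STAT5 were divided in direction. Of 10 such genes, 4 rose and 3 fell in each of the comparisons with Hox-WT, beside 21.3% and 15.9% of all tested genes for Hox-URE and 23.0% and 20.2% for URE-AML. Between the UREd/d lines 4 were higher and 3 lower in URE-AML, beside 20.3% and 22.4%. The median log2FC was 0.79, 0.32 and 0.52, and in the last comparison 0.30 with genes of at most 3 counts per library placed at the floor. *Bcl2l1*, which encodes the survival protein BCL-XL, rose by 1.39 ± 0.13 (SE, edgeR adjusted p = 1.49e-05) for Hox-URE and 0.68 ± 0.13 (adjusted p = 0.00131) in URE-AML, and *Ccnd3*, which encodes cyclin D3, by 0.94 ± 0.08 (adjusted p = 7.73e-06) and 1.64 ± 0.08 (adjusted p = 8.68e-08). The *Bcl2l1* call in URE-AML was lost without URE-AML library 1 (0.53). *Osm*, the gene of the cytokine oncostatin M and an early STAT5 target, had 65.8, 37.3 and 43.9 CPM in Hox-URE, beside 6.60, 8.04 and 6.99 CPM in Hox-WT and 6.75, 6.23 and 5.15 CPM in URE-AML.

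Like *Socs2*, *Osm* rose from Hox-WT to Hox-URE (2.76 ± 0.21, SE, edgeR adjusted p = 3.59e-06) and was lower in URE-AML relative to Hox-URE (-3.02 ± 0.22, adjusted p = 1.45e-06). *Id1* (1.91 ± 0.26, adjusted p = 0.000124) and *Bcl6*, a gene repressed by STAT5 (4.10 ± 0.41, adjusted p = 1.49e-05), rose in URE-AML against Hox-WT. In Hox-URE they were not called (0.65, adjusted p = 0.0543, and 1.16, adjusted p = 0.0522). *Id1* was called higher there by DESeq2, with no filter on low counts or at least 10 counts in every library, and without Hox-WT library 1 (0.82) or Hox-URE library 3 (0.85), and *Bcl6* without Hox-WT library 3 (1.61) or Hox-URE library 2 (1.34). *Myc* fell in both lines (-1.09 ± 0.14, adjusted p = 9.48e-05, and -0.83 ± 0.14, adjusted p = 0.000443), and *Ccnd2* fell in Hox-URE (-1.71 ± 0.19, adjusted p = 3.73e-05). *Ccnd1* had 5.67 to 7.91 CPM in Hox-WT, 1, 0 and 0 counts in Hox-URE and 4, 1 and 1 counts in URE-AML. It was called lower in both UREd/d lines (adjusted p = 1.94e-06 and 2.2e-06), near the floor. *Il2ra*, the IL-2 receptor alpha chain, had 0.364, 1.53 and 1.89 CPM in Hox-URE, 0.214 to 0.412 CPM in Hox-WT and 0 counts in all URE-AML libraries, at least 8.85-fold below Hox-URE and at least 2.19-fold below Hox-WT. Its call for Hox-URE against Hox-WT, as higher (1.98 ± 0.64, adjusted p = 0.0301) was lost without any 1 Hox-WT library and without Hox-URE library 2 or 3 (adjusted p of 0.0573 to 0.102).

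Of 5 tested genes tied to STAT3 (*Fgl1*, the sixth, was not tested), 2 rose and 1 fell in each UREd/d line against Hox-WT, beside 21.3% and 15.9% of all tested genes for Hox-URE and 23.0% and 20.2% for URE-AML. Between these lines 0 were higher and 1 lower in URE-AML relative to Hox-URE (edgeR, with 0 at an unadjusted p under 0.05 on the higher side and 0 called higher by DESeq2), beside 20.3% and 22.4%. The medians were 0.19, -0.13 and -0.32. *Cebpd* rose by 2.13 ± 0.15 (SE, edgeR adjusted p = 2.25e-06) for Hox-URE and 1.24 ± 0.15 (adjusted p = 5.96e-05) in URE-AML, and *Fos* by 1.53 ± 0.34 (adjusted p = 0.00356) and 1.52 ± 0.34 (adjusted p = 0.0032). *Bcl3* fell in both lines, from 0.969 to 2.10 CPM in Hox-WT to at most 0.664 CPM. Its calls were lost without Hox-WT library 1 or 2 (adjusted p of 0.0503 to 0.0584), and that in URE-AML also without URE-AML library 1 (0.0727) or 3 (0.0613). *Lif*, with 16, 3 and 1 counts in URE-AML, was not called in any comparison. Without URE-AML library 1 it was called lower in URE-AML against Hox-URE (-2.84, adjusted p = 0.0298) and Hox-WT (-3.14, adjusted p = 0.0182). The call against Hox-WT was also made without Hox-WT library 1 (-2.02, adjusted p = 0.0455).

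On a list of 13 other genes tied to inhibition of cytokine signaling, whose products need not act only as brakes, 3 rose and 2 fell in Hox-URE against Hox-WT. These counts are near the 21.3% and 15.9% of all tested genes and are no result about the list. In URE-AML against Hox-WT 3 rose and 4 fell, beside 23.0% and 20.2%, and 2 were higher and 3 lower in URE-AML relative to Hox-URE, beside 20.3% and 22.4%. The 4 that fell became 3 with RLE factors and 2 with library size alone or no filter on low counts, as *Pias4* and then *Sh2b3* went under the fold change threshold. The medians were -0.23, -0.03 and 0.21, the last of which was 0.05 with *Ptprc* placed at the floor. *Ptprc*, the gene of CD45, a phosphatase that acts on JAKs, had 152 to 170 CPM in Hox-WT, 0 counts in all Hox-URE libraries and 1, 0 and 1 counts in URE-AML, a drop of at least 1031-fold from Hox-WT to Hox-URE. *Sh2b3*, which encodes LNK, an adaptor that restrains JAK2 and KIT, rose in Hox-URE (1.30 ± 0.14, SE, edgeR adjusted p = 4.11e-05) and was called lower at the edge of the threshold in URE-AML (-0.59 ± 0.14, adjusted p = 0.0052), a call also lost without Hox-WT library 2 (-0.52) or URE-AML library 3 (-0.44). *Cbl*, a ubiquitin ligase for KIT and other receptors, fell in both (-0.65 ± 0.14, adjusted p = 0.0024, and -1.30 ± 0.14, adjusted p = 2.15e-05), the first under the threshold without Hox-WT library 1 (-0.57) or Hox-URE library 3 (-0.56). *Ptpn1* (1.16 ± 0.10, adjusted p = 4.7e-06) and *Ptpn11*, which encodes SHP2 (0.70 ± 0.10, adjusted p = 0.000236), rose in URE-AML against Hox-WT. *Ptpn6*, which encodes SHP1, was called there too (0.65 ± 0.24, adjusted p = 0.0368), but not without any 1 Hox-WT library (adjusted p of 0.0699 to 0.101) or without URE-AML library 1 (0.167).

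*Cblb*, a relative of *Cbl*, rose in Hox-URE (0.94 ± 0.14, SE, edgeR adjusted p = 0.000254) and was lower in URE-AML relative to Hox-URE (-0.98 ± 0.14, adjusted p = 0.000164). Of the genes for PIAS proteins, which bind STATs, *Pias3* was called higher in Hox-URE (0.74 ± 0.19, adjusted p = 0.00791), though not without Hox-URE library 2 (0.54). In URE-AML it lay just under the threshold (0.58 ± 0.19, adjusted p = 0.0242) and was called higher with no filter on low counts (0.59) and without Hox-WT library 2 (0.66) or URE-AML library 1 (0.65) or 3 (0.59). *Pias4* was called lower in URE-AML against Hox-WT just past the threshold (-0.59 ± 0.13, adjusted p = 0.00308), a call lost with DESeq2 (-0.58) and without URE-AML library 1 (-0.58) or 2 (-0.54). *Socs7* was not called, with levels of 34.2 to 37.5 CPM in Hox-WT, 27.5 to 31.9 CPM in Hox-URE and 32.2 to 35.3 CPM in URE-AML.

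SOCS proteins recruit a ubiquitin ligase of elongin B, elongin C, cullin 5 and a RING protein through their SOCS box. With the TMM factors used here, edgeR called 0 of *Elob*, *Eloc*, *Cul5*, *Rnf7* and *Rbx1* in each comparison, and DESeq2 also called 0. These zeros stand beside shares over the whole set of tested genes of 21.3% for rises and 15.9% for falls from Hox-WT to Hox-URE, 23.0% and 20.2% from Hox-WT to URE-AML, and 20.3% and 22.4% between the UREd/d lines. The medians were 0.10, 0.01 and -0.09. At an unadjusted p under 0.05 there were 2 genes in Hox-URE against Hox-WT, 1 in URE-AML against Hox-WT and 3 between the UREd/d lines, all with a fold change under 1.5. The largest difference was that of *Eloc* between URE-AML and Hox-URE (-0.58 ± 0.11, SE, adjusted p = 0.00113). It lay just under the threshold and was called lower with upper-quartile scaling (-0.59), with at least 10 counts in every library (-0.59), in a fit of the 6 libraries compared (-0.60), and without Hox-URE library 2 (-0.61) or 3 (-0.64) or URE-AML library 1 (-0.62). *Elob* had 125 to 157 CPM over all 9 libraries.

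Of 10 genes whose products PIM kinases phosphorylate, 1 rose and 1 fell in Hox-URE against Hox-WT, beside 21.3% and 15.9% of all tested genes. In URE-AML against Hox-WT 3 rose and 2 fell, beside 23.0% and 20.2%, and 2 were higher and 1 lower in URE-AML relative to Hox-URE, beside 20.3% and 22.4%. The medians were 0.16, 0.18 and 0.08. Over the fits without 1 library, 1 to 2 rose and 1 fell in Hox-URE, and 3 rose and 1 to 3 fell in URE-AML against Hox-WT. Between the UREd/d lines 2 to 3 were higher and 1 to 2 lower. *Cdkn1a* was called higher in Hox-URE without Hox-WT library 2 or Hox-URE library 2 (0.60 in each fit). Without Hox-URE library 1, *Eif4b* was called lower in URE-AML relative to Hox-URE (-0.73). *Cxcr4*, a chemokine receptor whose surface level PIM1 controls, had 20.8 to 28.1 CPM in Hox-WT, 34.2 to 43.4 CPM in Hox-URE and 89.6 to 131 CPM in URE-AML, and rose by 0.69 ± 0.17 (SE, edgeR adjusted p = 0.0074) and 2.12 ± 0.18 (adjusted p = 3.87e-06). With library size alone the rise in Hox-URE was 0.58, under the threshold. *Foxo3*, a pro-apoptotic transcription factor, fell in URE-AML (-1.58 ± 0.11, adjusted p = 8.62e-07). *Cdkn1a* rose there by 0.83 ± 0.13 (adjusted p = 0.000377) and *Cdkn1b*, which encodes the cell cycle inhibitor p27, by 0.74 ± 0.20 (adjusted p = 0.00946). *Eif4b*, a translation factor gene, was called lower in URE-AML against Hox-WT (-0.60 ± 0.15, adjusted p = 0.00581), though not without URE-AML library 2 (-0.58), and *Cdc25a* fell in Hox-URE (-0.78 ± 0.12, adjusted p = 0.000416). *Bad* was not called in any comparison.

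Markers of blood cell types differed between the lines together with the SOCS and PIM genes. The summed level of the mature neutrophil markers *Ltf*, *Camp*, *Ngp* and *Mmp8* was 4.72 to 20.0 CPM in Hox-WT, 0.0364 to 0.358 CPM in Hox-URE, with *Ltf* at 0, and 1106 to 5009 CPM in URE-AML, where all 4 were above the floor in every library and *Ngp* and *Camp* made up nearly all of the sum. That of the mast cell and basophil markers *Cpa3*, *Fcer1a*, *Ms4a2*, *Mcpt8* and *Prss34* was 373 to 733 CPM in Hox-WT, 1404 to 5648 CPM in Hox-URE and 24.9 to 55.1 CPM in URE-AML, mostly *Cpa3* in the Hox lines and *Mcpt8* in URE-AML, with *Fcer1a* at 0 in both Hox lines. Against Hox-WT, *Cpa3* and *Ms4a2* were called lower in URE-AML and *Mcpt8* higher (log2FC 1.92 ± 0.46, SE, edgeR adjusted p = 0.00449). *Prss34* had mean levels of 0.213 CPM in Hox-WT, 706 CPM in Hox-URE and 0.56 CPM in URE-AML. The progenitor markers *Kit*, *Cd34*, *Myb*, *Cd48* and *Ly6a* summed to 1814 to 2089, 822 to 1315 and 259 to 294 CPM, with *Cd34* at 1, 0 and 0 counts in URE-AML. Against Hox-WT, *Ly6a* was called higher in URE-AML (log2FC 3.29 ± 0.94, SE, edgeR adjusted p = 0.0124), and the other 4 were called lower. Relative to Hox-URE, *Kit* was called higher in URE-AML (1.17 ± 0.13, adjusted p = 2.78e-05), and *Cd34* and *Cd48* lower. The myeloid progenitor markers *Mpo*, *Elane*, *Ctsg* and *Prtn3* summed to 5567 to 8948, 2618 to 4003 and 7482 to 17180 CPM, with all 4 above the floor in every library. Their makeup differed, as *Mpo* had mean levels of 5042, 5.04 and 192 CPM in the same order of lines, *Elane* 181, 9.29 and 7311 CPM, and *Ctsg*, nearly all of the sum in Hox-URE, 1993, 3325 and 3712 CPM.

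The monocyte markers *Csf1r*, *Ly86*, *Irf8* and *Ccr2* summed to 20.8 to 23.5 CPM in Hox-WT, 840 to 939 CPM in Hox-URE, nearly all of it *Ccr2* with *Csf1r* at 0, and 13.4 to 22.5 CPM in URE-AML. Erythroid (*Klf1*, *Hba-a1*, *Hbb-bt*), megakaryocyte (*Pf4*, *Itga2b*, *Gp9*) and lymphoid markers (*Cd3e*, *Cd79a*, *Cd4*) summed to at most 16.0, 46.4 and 2.71 CPM, and *Cd3e* was at 0 throughout. The part of cell type composition in the SOCS and PIM values was not tested, and in such bulk libraries fewer cells of a type cannot be told apart from less RNA per cell.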

How the data were processed

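Stranded poly-A libraries (NEBNext Ultra II Directional kit) of 3 lines, 3 libraries each, were quantified by the authors with salmon on GRCm38 and summed to genes with tximport. The deposited estimated counts are whole numbers and were not scaled to library size. Whether they were scaled for transcript length is not given in the sources used here, and without that, changes in transcript use may alter a count. Total counts were 20331064 to 28588718, TMM factors 0.938 to 1.04 and edgeR's common coefficient of variation 0.173. Lines and library numbers came from the labels.

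The filter on low counts was filterByExpr at its minimum count of 10, which 13082 of 54347 genes passed. All 9 libraries were fitted with line as the only factor in edgeR 4.0.16 (R 4.3.3), and the lines were compared with its two-sided quasi-likelihood F test, with Benjamini-Hochberg adjustment over all tested genes. SE was computed as |log2FC| over the square root of F. Exon lengths and coordinates came from GENCODE M21, and promoter windows from RefSeq. Lower bounds of a fold use the largest floor (3 counts per library) of the line at 0. The code was tested on simulated data. Alternatives were other scalings and filters, the 6 libraries compared, DESeq2 1.42.0, the replicate number as a block, other call rules, leaving out each library, and transcript length. Figures were drawn with matplotlib 3.10.9.

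The genes, lists and tests were chosen with earlier results of these data known. Named were the 10 genes, receptors and STAT genes, list members called in any comparison, cell type markers, *Spi1*, *Hoxb8*, and the 3 genes most like *Cish*, *Socs2* and *Pim1*. *Jak3*, *Socs7*, *Bad*, *Fgl1*, *Lif* and the SOCS box genes are named outside this rule. Of the listed genes, 3 are not reported here and were left out of the counts and sums of their lists.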

Additional observations from a re-analysis of the deposited data

How the results depend on the processing

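Of 570 alternative values for the 10 genes (19 for each gene and comparison), 546 kept direction and side of the threshold, 13 passed it newly, 5 no longer passed it and 6 changed sign. All 6 changes of sign were in URE-AML against Hox-URE, for genes not called there. *Socs1* (0.06) was -0.30 without Hox-URE library 1, -0.08 without Hox-URE library 2 and -0.02 without URE-AML library 1, in a range of -0.30 to 0.75 over the fits without 1 library. *Pim3* (0.04) was -0.07 without Hox-URE library 2, -0.18 without Hox-URE library 3 and -0.21 without URE-AML library 1, in a range of -0.21 to 0.43. The number of the 10 genes that fell in URE-AML against Hox-WT (2) was 1 in a test against 1.5-fold (glmTreat), 3 with upper-quartile scaling or no fold change threshold, where *Pim2* was added, and 1 to 3 over the fits without 1 library, with 1 without URE-AML library 3. The glmTreat test asks for evidence beyond 1.5-fold, and by it *Pim2* and *Pim3* in Hox-URE (adjusted p = 0.0994 and 0.0728) and *Pim1* and *Socs6* in URE-AML (0.127 and 0.194) were not called against Hox-WT. It also ended calls of other listed genes. Against Hox-WT these were *Jak1*, *Stat6*, *Il2ra*, *Cbl*, *Pias3*, *Cdc25a* and *Cxcr4* in Hox-URE. In URE-AML they were *Il6ra*, *Bcl2l1*, *Pias4*, *Ptpn11*, *Ptpn6*, *Sh2b3*, *Cdkn1b* and *Eif4b*. Between the UREd/d lines they were *Csf2ra*, *Bcl2l1*, *Ccnd3* and *Cbl*. With no fold change threshold, *Pim2* (-0.58) and *Socs4* (0.54) in URE-AML against Hox-WT and *Pim1* (0.39) in URE-AML against Hox-URE were called. *Pim2* was also called with upper-quartile scaling (-0.61), and *Socs4* without Hox-WT library 2 (0.61, adjusted p = 0.0169).

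By their labels, libraries of different lines share only a number. The paper states that, where an experiment took several days, each day held replicates of each condition. Deviations of same-numbered libraries from their line means correlated across genes at 0.271, 0.099 and 0.174 for Hox-URE and Hox-WT and at 0.010 to 0.092 in the other comparisons. Libraries of unlike number correlated at -0.211 to 0.066 for Hox-URE and Hox-WT and at -0.089 to 0.040 in the other comparisons. Each Hox-URE library correlated best with the Hox-WT library of its own number. So did each URE-AML library with either Hox line, except that URE-AML library 1 correlated equally with Hox-WT libraries 1 and 2 (0.010). This is a hint from the data that the numbers pair libraries, and the main fit did not use it. With the replicate number as a block, the counts of called SOCS and PIM genes were 6 and 1, 5 and 2, and 2 and 3, as without it. Among the other listed genes the block ended the calls of *Il2ra* in Hox-URE (1.81, adjusted p = 0.0732) and *Ptpn6* in URE-AML (0.65, adjusted p = 0.0589) against Hox-WT and added *Id1* in Hox-URE (0.61, adjusted p = 0.0032). With the length of the longest transcript in place of the exon union, 15 of 30 ranks by level per kilobase changed and 18 of 30 shares moved by more than 1 SD. In Hox-WT the share of *Socs2* in the SOCS sum went from 12.6% to 19.1% and that of *Pim3* in the PIM sum from 20.8% to 17.3%. Of 798 counts over the lists of other genes, 49 moved by over 1.5 times. Low counts limit *Socs1* in Hox-WT (59 to 67 counts) most among the 10 genes.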
